A study of Bos taurus with 2 samples.

Results

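The SPATA (spermatogenesis associated), TEX (testis expressed) and SPAG (sperm associated antigen) genes share a naming history, not a common ancestor. They are here every gene whose symbol starts with one of these stems followed by a digit, apart from 2 genes that were left out. The rule found 47 genes among the 24616 listed, of which 19 were SPATA, 17 TEX and 11 SPAG genes, each on a single row of the tables. RNA was sequenced from pieces of seminiferous tubule of cattle (Bos taurus). A calf aged 3 months gave 1 library of 37600534 counts, and a calf aged 9 months gave 1 library of 29782234 counts. Breed, genotype and treatment are not given in the labels, and both libraries come from frozen tubule pieces of removed testes. Each value below compares 1 animal with 1 other, so no difference has a replicate check and no test across genes is possible.

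Sperm develop in the tubule wall in a fixed order. Spermatogonia divide by mitosis, spermatocytes pass through meiosis, and haploid spermatids then build the acrosome, a condensed head and a tail around a microtubule core called the axoneme. In young calves the tubules hold mostly Sertoli cells and early germ cells, and spermatocytes and spermatids appear as puberty approaches. Many of the genes described here were named because their transcripts were found in testis or their products on sperm, and their proteins act at different steps of that path. Others keep a testis name although they work in most cells of the body.

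For that reason the 47 genes were split by general knowledge. Broadly expressed genes made up 17 of them, and the other 30 were taken as germ cell and sperm tail genes, SPAG11 included although it is known best from the epididymis. Levels are given in RPKM, which relate read counts to gene length and to a library size scaled by TMM, a trimmed mean of the genes' ratios. A fold is the ratio of scaled counts with its 95% exact counting interval in brackets. A gene was called higher or lower when the fold was at least 2 and the interval left out a ratio of 1. Any other gene was not called, and all members not called lay within 2-fold. The intervals cover counting error only.

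Of the 47 genes 41 were higher in the 9-month library, 0 were lower and 6 lay within 2-fold. Over all 18025 measured genes, those with at least 10 counts in both libraries together, 28.0% were higher and 22.8% lower by the same rule, or 36.2% and 14.7% with plain library totals in place of TMM, under which the members' counts did not change. All 30 germ cell and sperm tail genes were higher, and so were 11 of the 17 broadly expressed genes. The median log2 ratio was 3.98 for the 47 genes, 6.17 for the germ cell and sperm tail genes and 1.54 for the broadly expressed ones, beside 0.02 over all measured genes. A fold of at least 16 was seen for 23 of the 47 genes and for 7.65% of measured genes. Every one of the 47 passed the count minimum, but 16 had fewer than 10 counts in the 3-month library and passed through their 9-month counts. For these 16 the count minimum itself favoured a call of higher, most strongly near 0 counts. Among the 31 genes with at least 10 counts at 3 months, 6 lay within 2-fold and 25 were higher, and the median log2 ratio of the 31 was 3.04. The 15 germ cell and sperm tail genes among them had a median of 4.85, against 6.17 for all 30.

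The 47 genes together took 0.0549% (0.0541 to 0.0556, 95% exact binomial) of the counts of the 3-month library and 0.435% of those of the 9-month library (0.432 to 0.437). Broadly expressed genes held 72.3% of the members' counts at 3 months and 47.0% at 9 months, and the germ cell and sperm tail genes the rest. By RPKM, 12 of the 47 stood above the middle of all measured genes in the younger calf and 40 in the older one. In bulk RNA, more cells of a type cannot be told apart from more RNA per cell.

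**Figure D1:**
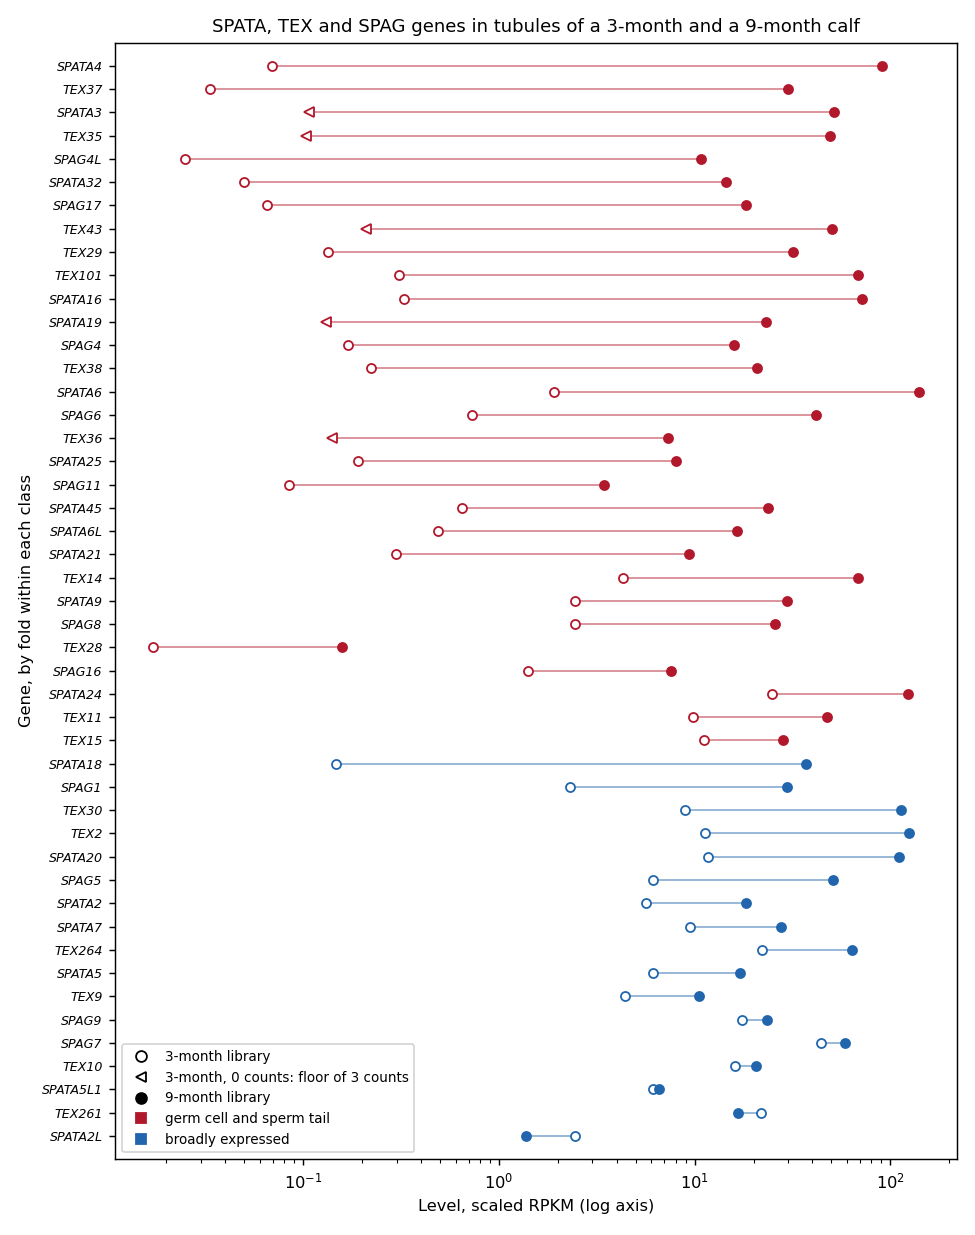
Level of each of the 47 genes in scaled RPKM (log axis) in the 3-month library (open symbols) and the 9-month library (filled symbols), ordered by fold within the germ cell and sperm tail genes (red) and the broadly expressed genes (blue). Triangles mark the 5 genes with 0 counts at 3 months, drawn at the floor of 3 counts, and only TEX261 and SPATA2L have the filled symbol to the left of the open one, TEX261 not so with plain library totals.

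Both libraries carried the markers of tubule cells. Of 12 Sertoli cell symbols 10 were listed and measured, and their summed level was 4897 CPM (counts scaled to library size, as RPKM but without gene length) at 3 months and 857 CPM at 9 months, with 5 lower, 1 higher and 4 within 2-fold. The 6 measured Leydig cell genes, which mark the tissue between tubules, summed to 17511 and 2741 CPM with 5 lower and 1 higher. Of 15 peritubular, endothelial, leukocyte and blood genes 4 were higher, 7 lower and 4 within 2-fold, and their sum was 559 and 840 CPM. Over all measured genes, for comparison with the 3 lists, 28.0% were higher and 22.8% lower. HBB, a blood marker, had 0 counts at 9 months. Marker levels cannot tell cell make-up from RNA per cell here, and their bearing on the values of the 47 genes was not tested.

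Among genes of meiosis and the early germ line, TEX11, TEX14 and TEX15 were already present in the younger calf. TEX15, which takes part in silencing transposons through piRNAs and in meiotic repair, had 2986 counts at 3 months, the most of all 47 genes, and 8114 at 9 months. Its level was 11.2 and 28.2 RPKM, 2.51-fold higher [2.404 to 2.62]. TEX11, an X-linked gene of meiotic recombination, had 867 and 4528 counts, or 9.86 and 47.5 RPKM, and was 4.82-fold higher [4.48 to 5.19]. TEX14 builds the intercellular bridges that join dividing germ cells. It had 666 and 11416 counts, or 4.31 and 68.2 RPKM, and was 15.8-fold higher [14.6 to 17.1]. The intervals of the 3 folds did not overlap, with TEX15 lowest and TEX14 highest. TEX14 overlaps RAD51C and MGC137055 in the RefSeq annotation of assembly ARS-UCD2.0, and these had log2 ratios of 0.51 and 4.59 beside 3.98 for TEX14. Whether the counting used strand is not given, so reads of overlapping genes may not be fully separated.

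Genes of the sperm head, neck, midpiece and surface were close to absent at 3 months. All 7 were higher, from 73.6-fold to 434-fold, beside 28.0% of all measured genes called higher. Their median log2 ratio was 7.22. SPATA6, needed for the connecting piece between head and tail, had 109 counts in the younger calf and 8690 in the older one, which is 1.91 and 140.4 RPKM and 73.6-fold [60.9 to 89.7]. It had the highest 9-month level of the 47 genes and was the one member of this group above 1 RPKM at 3 months. SPATA16, an acrosome gene whose loss in humans gives round-headed sperm, went from 19 to 4494 counts and from 0.327 to 71.4 RPKM, 218-fold higher [139.6 to 363]. TEX101, a surface protein of germ cells needed for the maturation of a fertility factor on sperm, had 10 and 2404 counts, or 0.309 and 68.6 RPKM, and was 222-fold higher [120.4 to 463]. The intervals of SPATA16 and TEX101 overlapped.

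The other 4 of the group had fewer than 10 counts at 3 months and passed the count minimum through their 9-month counts. SPAG4, a nuclear envelope protein of spermatids, had 8 and 814 counts, or 0.169 and 15.9 RPKM, a ratio of 93.9 [47.4 to 218]. TEX38, a partner of a palmitoyltransferase of the sperm head, was nearly the same, with 6 and 610 counts and a ratio of 93.8 [42.9 to 257]. SPAG4L, which RefSeq lists as SUN5 and which anchors the tail to the nucleus, had 1 and 470 counts, a ratio of 434 [77.5 to 17166]. SPATA19, a gene of the mitochondrial sheath of the midpiece, had 0 and 574 counts, or 23.1 RPKM at 9 months. Against a floor of 3 counts SPATA19 was 177-fold higher, with a lower interval end of 143. The intervals of SPAG4, TEX38 and SPAG4L overlapped one another, so these 3 cannot be ranked by fold.

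The 5 axonemal genes were all higher, from 5.35-fold to 280.1-fold, beside 28.0% of all measured genes called higher. Their median log2 ratio was 5.78. SPAG17, SPAG6 and SPAG16 belong to the central apparatus, the pair of microtubules in the middle of the axoneme with its projections. SPAG17 had 14 and 4250 counts, or 0.0652 and 18.3 RPKM, and was 280.1-fold higher [166.8 to 513]. SPAG6 had 44 and 2739 counts, or 0.724 and 41.6 RPKM, and was 57.4-fold higher [42.7 to 79.2]. SPAG16 had 30 and 174 counts, or 1.41 and 7.53 RPKM, and was only 5.35-fold higher [3.62 to 8.17]. The intervals of these 3 parts of one structure were all separate, and SPAG16 had both the highest 3-month and the lowest 9-month level of them. The deposited gene length of SPAG16 was 663 bases, against 1890 for SPAG6 and 6681 for SPAG17. SPAG17 overlaps WDR3 in RefSeq, a gene with 2446 and 1637 counts and a log2 ratio of -0.69.

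SPAG8 and TEX43, both linked to the microtubules of the sperm tail, completed the group. SPAG8 had 120 and 1370 counts, or 2.46 and 25.9 RPKM, and was 10.5-fold higher [8.74 to 12.8]. TEX43 had 0 and 785 counts, 50.4 RPKM at 9 months, and passed the count minimum through its 9-month counts. Against a floor of 3 counts it was 241-fold higher, with a lower interval end of 196. TEX43 thus had the highest 9-month level per length of the 5. Axonemal genes are also used by multiciliated epithelium, and 7 of the 10 fixed genes of such cells were measured. All 7 were higher, from 4.10-fold for DNAH5 to 407-fold for RSPH1, beside 28.0% of all measured genes. Their summed level was 6.04 and 450.2 CPM. FOXJ1, DNAI1 and RSPH4A had 5, 8 and 5 counts at 3 months and 209, 1612 and 27 at 9 months. These passed the count minimum through their 9-month counts. MCIDAS and CCNO, also on that list, had 1 and 2 counts at 3 months and 3 and 2 counts at 9 months. Both fell below the count minimum and were not measured. Whether such cells were present was not tested.

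A further 14 genes are known chiefly from testis, and for most of them no role is stated here. All 14 were higher, from 4.97-fold to 1310-fold, with a median log2 ratio of 5.68, beside 28.0% of all measured genes called higher. Most of the 14 had fewer than 10 counts at 3 months and passed the count minimum through their 9-month counts. For those the count minimum itself favoured a call of higher, most strongly near 0 counts. SPATA4 had 3 and 4258 counts, or 0.0696 and 91.1 RPKM, a ratio of 1310 [448 to 6353] that rests on 3 counts. SPATA3 and TEX35 had 0 counts at 3 months and 1567 and 1540 at 9 months, or 51.8 and 49.1 RPKM. Against a floor of 3 counts they were 482-fold and 474-fold higher, with lower interval ends of 391.5 and 384.8. They cannot be ranked against SPATA4. TEX36, also at 0 counts, reached only 170, or 7.34 RPKM. Against the same floor TEX36 was 52.3-fold higher, with a lower interval end of 42.1. Together with SPATA19 and TEX43, these made 5 genes at 0 counts in the younger calf, where the floor of 3 counts stands for 0.104 to 0.209 RPKM in genes of their lengths.

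TEX37, TEX29 and SPATA32 had between 1 and 3 counts at 3 months. TEX37 had 1 and 975 counts, a ratio of 899.7 [161.1 to 35572], and reached 30.0 RPKM. TEX29 had 3 and 768 counts, a ratio of 236 [80.5 to 1148], and reached 31.8 RPKM. SPATA32 had 2 and 628 counts, a ratio of 289.8 [79.9 to 2398], and reached 14.4 RPKM. The intervals of these 3 overlapped widely. SPATA25, SPATA45, SPATA6L and SPATA21 lay between 31.4-fold and 42.4-fold higher, with 9-month levels from 8.04 RPKM for SPATA25 to 23.7 RPKM for SPATA45. Of these, SPATA25, SPATA6L and SPATA21 overlap other listed genes in RefSeq, and each of those partners had a log2 ratio between -0.45 and 0.85.

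Within the same 14 genes, SPATA24, SPATA9 and TEX28 stood apart. SPATA24 had 682 and 3673 counts, or 24.8 and 123 RPKM, and was 4.97-fold higher [4.58 to 5.401]. Its 3-month level was the second highest of the 47 genes and the highest of the germ cell and sperm tail genes, and its 9-month level ranked the third. SPATA9 had 82 and 1080 counts, or 2.43 and 29.6 RPKM, and was 12.2-fold higher [9.70 to 15.4]. It overlaps RHOBTB3, which went the other way with a log2 ratio of -1.39. TEX28 had 1 and 10 counts, a ratio of 9.23 [1.31 to 400.5], and stayed at 0.158 RPKM, the lowest 9-month level of all 47.

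SPAG11 is a name for defensin-like proteins of the epididymis, the duct that stores sperm. It was counted among the 30 germ cell and sperm tail genes only because it was not on the broadly expressed list. It had 4 and 177 counts, or 0.0842 and 3.44 RPKM, and was 40.8-fold higher [15.7 to 152]. After TEX28 and the broadly expressed SPATA2L this was the lowest 9-month level. Markers of the epididymis were not among the lists used.

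**Figure D2:**
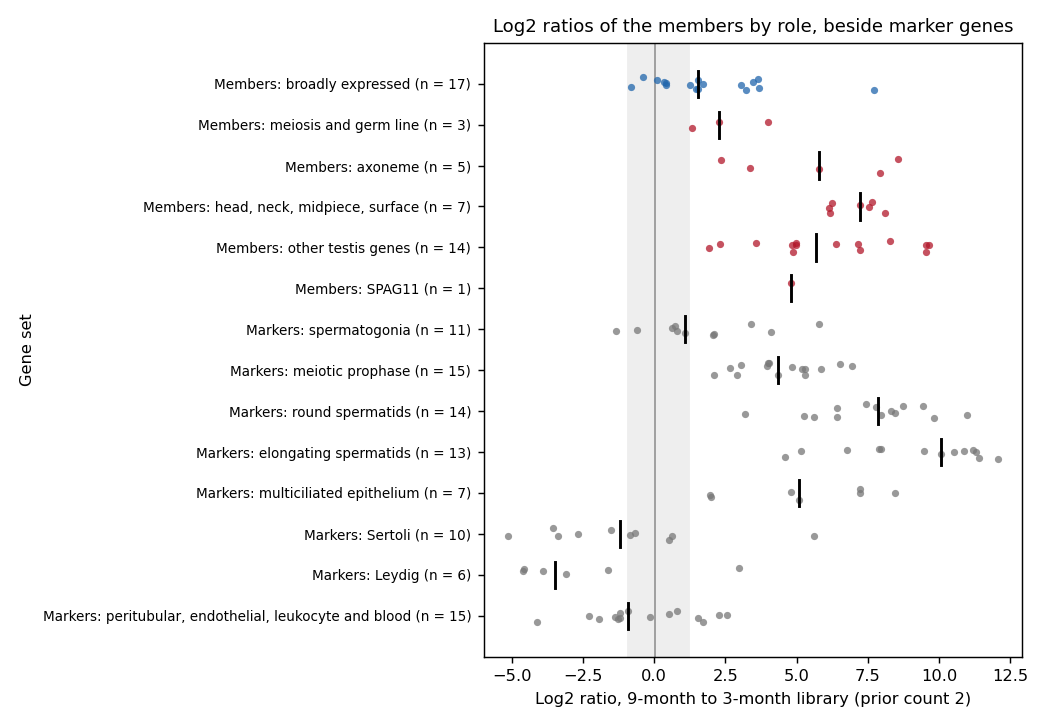
Log2 ratio of the 9-month to the 3-month library (prior count of 2) for each of the 47 genes by role (red and blue points) and for marker genes of cell types (grey points), with black bars at medians. The grey band spans the first to the third quartile of all measured genes and the grey line their median of 0.02, and the members' medians run from 1.54 for broadly expressed genes to 7.22 for genes of the sperm head, neck, midpiece and surface.

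Marker genes of the germ line give a scale for these differences. Of 11 measured spermatogonial genes 6 were higher and 5 were not called, among them NANOS2 with only 10 and 3 counts. The median log2 ratio of the 11 was 1.10, within a wide range from -1.35 to 5.79. All 15 meiotic prophase genes were higher with a median of 4.36, all 14 measured round spermatid genes with 7.87 (SUN5, also on that list, is the member SPAG4L), and all 13 elongating spermatid genes with 10.07. Over all measured genes 28.0% were higher. Most genes of both spermatid lists had fewer than 10 counts at 3 months. Those passed the count minimum through their 9-month counts, which itself favoured a call of higher, most strongly near 0 counts. TEX11 and TEX15, at 2.27 and 1.33 on the same scale, lay between the spermatogonial and the meiotic median, and TEX14 at 3.98 just below the meiotic one. The 7 genes of the sperm head, neck, midpiece and surface ranged from 6.16 to 8.11, with a median of 7.22. Without the prior count, and with genes at 0 counts set at the floor of 3 counts, that median and the one of round spermatids were both 7.46. The order of these groups thus depends on the prior count. These lists were chosen with earlier results of these data known and served as a description, and no difference between them was tested.

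The 17 broadly expressed genes fell into 6 that were at least 4-fold higher, 5 that were between 2-fold and 4-fold higher, and 6 within 2-fold. SPATA13 had been placed in the same list but was not found under that symbol. Of all 18025 measured genes, 28.0% were called higher, and 3123 genes were at least 4-fold higher. The split at 4-fold depends on the scaling, since SPATA2, one of the 5, was 4.44-fold higher with plain library totals. The 6 with the widest differences were SPATA18, SPAG1, TEX30, TEX2, SPATA20 and SPAG5. SPATA18, a p53 target that acts in mitochondrial quality control, had 9 and 2473 counts, or 0.146 and 37.1 RPKM, and was 254-fold higher [133 to 555]. Its 3-month level was the one value under 1 RPKM among the 17 genes, which does not match a gene expressed in most cells of this tissue. SPAG1, which helps assemble dynein arms and is mutated in a disorder of motile cilia, had 214 and 2973 counts, or 2.31 and 29.6 RPKM, and was 12.8-fold higher [11.2 to 14.8].

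TEX30, TEX2 and SPATA20 started at similar levels in the younger calf and reached similar levels in the older one. TEX30 had 328 and 4472 counts, or 8.97 and 112.8 RPKM, and was 12.6-fold higher [11.2 to 14.1]. TEX2, a protein of the endoplasmic reticulum that moves lipids, had 1149 and 13799 counts, or 11.3 and 125 RPKM, and was 11.1-fold higher [10.4 to 11.8]. SPATA20 had 971 and 9942 counts, or 11.7 and 110.2 RPKM, and was 9.45-fold higher [8.84 to 10.1]. In the 9-month library these 3 ranked among the first 5 of the 47 genes by level, beside SPATA6 and SPATA24. SPAG5, the mitotic spindle protein astrin, had 739 and 6605 counts, or 6.15 and 50.7 RPKM, and was 8.25-fold higher [7.64 to 8.91].

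Smaller differences were seen in 5 broadly expressed genes. SPATA2, an adaptor between ubiquitin enzymes in inflammatory signalling, had 698 and 2457 counts, or 5.61 and 18.2 RPKM, 3.25-fold higher [2.99 to 3.54]. SPATA7, a protein of the photoreceptor cilium, had 722 and 2278 counts, or 9.47 and 27.6 RPKM, 2.91-fold higher [2.68 to 3.17]. TEX264, a receptor for the breakdown of endoplasmic reticulum, had 1162 and 3654 counts, or 22.0 and 63.8 RPKM, 2.90-fold higher [2.72 to 3.102]. SPATA5, an ATPase of ribosome maturation, followed with 483 and 1448 counts, or 6.14 and 16.98 RPKM, 2.77-fold higher [2.49 to 3.07]. The folds of these 4 spanned 2.77 to 3.25, and their intervals all overlapped one another. TEX9 had 213 and 549 counts, or 4.42 and 10.5 RPKM, 2.38-fold higher [2.03 to 2.80]. It overlaps MNS1, a gene of the sperm tail that had 376 and 1537 counts and a log2 ratio of 1.91.

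The 6 genes within 2-fold were SPAG9, SPAG7, TEX10, SPATA5L1, TEX261 and SPATA2L. SPAG9, a scaffold of JNK kinase signalling, had 2369 and 3457 counts, or 17.4 and 23.4 RPKM, a fold of 1.35 [1.28 to 1.42]. SPAG7 had 1391 and 2003 counts, or 44.0 and 58.5 RPKM, a fold of 1.33 [1.24 to 1.42], and was the most abundant of the 47 genes in the younger calf. TEX10, a nuclear protein of ribosome assembly, had 1542 and 2137 counts, or 16.2 and 20.7 RPKM, a fold of 1.28 [1.20 to 1.37]. SPATA5L1, the partner of SPATA5 in ribosome maturation, had 493 and 572 counts, or 6.14 and 6.57 RPKM, a fold of 1.07 [0.947 to 1.21]. SPATA5 and SPATA5L1 had the same 3-month level of 6.14 RPKM, while their intervals for the fold did not overlap. TEX261, a protein of vesicle export from the endoplasmic reticulum, had 2281 and 1892 counts, or 21.8 and 16.7 RPKM, and was 1.31-fold lower [1.23 to 1.39]. It overlaps ANKRD53, which had 4 and 128 counts. SPATA2L, a relative of SPATA2, had 137 and 83 counts, or 2.45 and 1.37 RPKM, and was 1.79-fold lower [1.35 to 2.38]. These were the 2 members with a fold under 1, and SPATA2L differed in direction from SPATA2. With plain library totals the fold of TEX261 turned to 1.05, and with upper-quartile scaling that of SPATA5L1 turned to 0.997, while SPATA2L stayed below 1 under every scaling tried, from 1.31-fold to 1.92-fold lower.

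**Figure D3:**
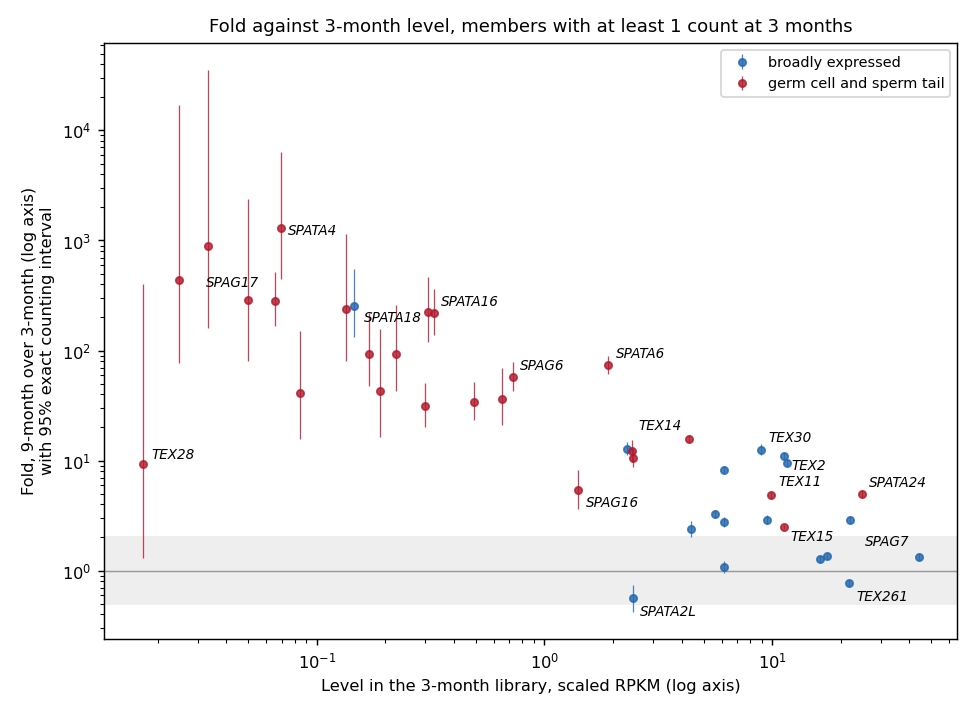
Fold of the 9-month over the 3-month library against the 3-month level in scaled RPKM (both log axes) for the 42 genes with at least 1 count at 3 months, with 95% exact counting intervals as vertical bars and a grey band from 0.5-fold to 2-fold. The 6 genes within the band are broadly expressed (blue), and intervals widen to the left where 3-month counts are few.

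The order of the 47 genes by level changed between the libraries. At 3 months the first 10 by RPKM held 7 broadly expressed genes (SPAG7, TEX264, TEX261, SPAG9, TEX10, SPATA20 and TEX2) and 3 others (SPATA24, TEX15 and TEX11). At 9 months they held 4 broadly expressed genes (TEX2, TEX30, SPATA20 and TEX264) and 6 others (SPATA6, SPATA24, SPATA4, SPATA16, TEX101 and TEX14). Both lists shared 4 genes, which were SPATA24, TEX264, SPATA20 and TEX2. Of the 30 germ cell and sperm tail genes, 22 lay under 1 RPKM at 3 months, and these reached 0.158 to 91.1 RPKM at 9 months, with a median of 22.0. The 8 that started at 1 RPKM or more reached 7.53 to 140.4 RPKM, with a median of 38.5. The 9-month ranges of the 2 sets overlapped, and SPATA6 and SPATA24, the germ cell and sperm tail genes with the highest 9-month levels, were both in the second set. A low 3-month level enters the fold itself, and the relation of fold to that level in the plot is partly built in.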

How the data were processed

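RNA of seminiferous tubules from 1 calf per age was sequenced. Reads were trimmed with Trimmomatic 0.33 and aligned with STAR 2.4.0 to the bovine build UMD3.1, per the submitters' processing notes. The sources used here give no counting program, annotation release or strand setting. The deposited tables have no header, so units were worked out from the values: raw counts per gene, gene length, and RPKM relative to the table's own total. The deposited RPKM equalled that quotient within 0.000496% and was used only for this check. The number of columns of other samples was 0.

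TMM factors from edgeR 4.0.16 (R 4.3.3), over genes with at least 10 counts in both libraries together, were 0.855 for the 3-month and 1.17 for the 9-month library. Log2 ratios carry a prior count of 2. Folds divide the scaled counts and carry a 95% exact conditional binomial interval. Folds against 0 counts are taken at a floor of 3 counts per library (0.0933 CPM at 3 months and 0.0861 at 9 months). Such a fold is not a lower limit, and the lower end of its interval is smaller. PCR reads without molecular identifiers are not independent molecules, so intervals and floors cover counting error only. With 1 library per age there is no p-value. The ratio code was tested on simulated data. Intervals came from scipy 1.17.1, tables from pandas 2.3.3 and numpy 2.4.6, and plots from matplotlib 3.10.9, all under Python 3.11.15.

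The members, the split into broadly expressed and other genes, the roles and the marker lists were chosen with earlier results of these data known. By the rule for named genes every member could be named, and values went to all broadly expressed, axonemal and zero-count members, to the most abundant and most different ones, and to TEX11, TEX14, TEX15, TEX101, SPATA16 and SPATA6 whatever their values. TEX19, also named in that rule, and SPATA17, also fixed as axonemal, were not found under those symbols. Symbols were matched to the RefSeq gene table of assembly ARS-UCD2.0 for 46 of 47 members, for overlaps and synonyms only, and since the build differs no coordinates are given. Of 2 HBA rows with the same counts 1 was kept. Scaling with plain totals, upper quartiles and DESeq2 1.42.0 size factors, other minimum counts, another prior count and a 4-fold call were tried as alternatives.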

Additional observations from a re-analysis of the deposited data

How the results depend on the processing

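The calls of the 47 genes were the same with plain library totals, upper-quartile scaling and DESeq2 size factors, under which 0 members changed call. Relative to TMM these scalings shifted log2 ratios by 0.45, -0.10 and 0.02. The counts of higher and lower members stayed within 1.5 times of their values under every alternative except one. With a 4-fold call 6 broadly expressed genes were higher in place of 11, beside 3123 of all 18025 measured genes. The median log2 ratio of the broadly expressed genes was 1.99 with plain library totals. With a prior count of 10 the median was 3.67 for all 47 genes and 5.29 for the germ cell and sperm tail genes, since a larger prior count shrinks ratios of genes with few counts. In an alternative chosen after seeing the data, the 8 members that overlap a listed gene were left out, and the median of the others was 3.67. With a minimum of 50 counts TEX28 dropped out and 40 of 46 members were higher. Counts under 10 at 3 months leave 16 folds with wide intervals. No paired analysis was possible because each age has 1 library. No library could be left out for the same reason.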

Other observations

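The tables list 3 further genes of these naming series under other symbols, found through RefSeq synonyms after the data were seen. C3H1orf111, which RefSeq names SPATA46 and which is known from the spermatid nuclear envelope, had 3 counts in the younger calf and 1386 in the older one, or 0.100 and 42.7 RPKM, a ratio of 426 [146 to 2070]. C4H7orf62, named TEX47, had 1 and 944 counts, a ratio of 871 [156 to 34442], and reached 35.7 RPKM. C12H13ORF26, named TEX26, had 0 and 486 counts, or 13.4 RPKM at 9 months. Against a floor of 3 counts it was 149-fold higher, with a lower interval end of 121. With these 3 genes added, 44 of 50 genes were higher, beside 28.0% of all measured genes. The median log2 ratio of the 50 was 4.83. All 3 passed the count minimum through their 9-month counts, which itself favoured a call of higher. In all, RefSeq holds 69 symbols of the 3 series apart from those left out, and 24 of them were not found in the tables under that symbol, these 3 included.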
